A study of Mus musculus with 6 samples.

Results

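The amino acid transporters described here are 60 protein-coding genes of the solute carrier families Slc1, Slc3, Slc6, Slc7, Slc36, Slc38 and Slc43, measured in liver sinusoidal endothelial cells (SECs) of control mice and of mice labelled as RBPj knock-out. They were taken from the deposited gene table by symbol alone, as every protein-coding row of these families, and the table has 41799 rows, 22052 of them protein-coding. By family there were 7 Slc1, 2 Slc3, 18 Slc6, 15 Slc7, 4 Slc36, 11 Slc38 and 3 Slc43 genes. RNA sequencing was done on SECs from fibrotic mouse livers in 3 libraries labelled as control and 3 labelled as endothelial RBPj knock-out. RBPj binds DNA and, once joined by a cleaved Notch receptor, switches Notch target genes on. The male mice of both groups were given tamoxifen (2 mg per 20 g of body weight, daily for 7 days, starting at 4 to 6 weeks of age) and rested for 1 week. Both groups then received carbon tetrachloride (CCl4 at 15% in olive oil, 0.6 µl for each g of body weight) 2 times a week for 6 weeks, and the labels give an age of 12 to 14 weeks. The strain label reads C57BL/6 for the controls and knock-out replicate 1, C57BL/7 for knock-out replicate 2 and C57BL/8 for knock-out replicate 3. Which promoter drove the recombinase and which alleles the controls carried is not given in the sources used here, and no library of uninjured liver was analysed here. No label says whether each replicate was a separate mouse, so p-values measure the spread among these samples, which may be technical.

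Amino acids cross the plasma membrane and the lysosomal membrane through carriers that exchange one amino acid for another, couple uptake to sodium, chloride or proton gradients, or let amino acids pass down their own gradient. The Slc7 light chains work as exchangers only when joined to a heavy chain, Slc3a2 (CD98, 4F2hc) or Slc3a1 (rBAT), which brings them to the membrane. Several of these carriers feed the mTORC1 nutrient-sensing pathway, and in human tumour cells Myc is known to raise the expression of some of them, including SLC1A5 and SLC7A5.

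Total counts ran from 10372195 to 12326770 per library, and the transporters took 0.285% to 0.355% of them. Rbpj was at 18.6, 14.5 and 16.4 CPM against 11.6, 8.10 and 11.9 CPM (control against knock-out, replicates 1, 2 and 3 in order), where CPM are counts scaled to the TMM library size. The knock-out libraries were all below the controls, with a log2 fold change of -0.64 ± 0.19 (SE), which did not pass the threshold (adjusted p = 0.187, edgeR quasi-likelihood test). Myc was at 84.9, 69.0 and 84.6 CPM against 190.4, 209.5 and 264 CPM and rose by 1.48 ± 0.16 (SE) on the log2 scale (adjusted p = 0.0470, edgeR). That call was lost with the replicate block (adjusted p = 0.0667) and in 5 of the 6 fits that left out a library (adjusted p up to 0.185). None of the 12 SEC markers (such as Stab2, Lyve1 and Clec4g) was at 0, and their summed CPM was 14340 to 20840 in the controls and 21930 to 26940 in the knock-outs. The libraries differed more in markers of other liver cells. Summed neutrophil markers (10 genes, Mpo at 0 in all libraries) were 22470 CPM in control replicate 1, 4537 CPM in knock-out replicate 1 and 336 to 818 CPM elsewhere. Hepatocyte markers (12 genes) summed to 511 to 2241 CPM in the controls and 218 to 3879 CPM in the knock-outs, with Serpina1a and Cps1 near 0 (the row of Cps1 is placed on a separate scaffold). Kupffer cell and macrophage markers (12 genes) summed to 2576 to 4924 CPM against 789 to 3111 CPM, and stellate cell markers (12 genes) to 4652 to 13050 CPM against 1511 to 6301 CPM. Cholangiocyte markers (8 genes) summed to 449 to 993 CPM against 309 to 961 CPM, and lymphocyte markers (12 genes, Cd2 at 0) to 14.7 to 41.3 CPM against 18.7 to 22.2 CPM. In bulk samples such as these, fewer cells of a type and less RNA per cell cannot be told apart.

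Most of the transporter RNA came from a few genes. Of the 60 genes, 32 had enough reads for the test (the filterByExpr rule of edgeR) and 28 did not. Expressed per length as reads scaled to gene length and library total (RPKM, the authors' values), Slc43a3 was the most abundant at 192.9 ± 20.6 RPKM (mean and SD over all 6 libraries), followed by Slc38a2 at 96.0 ± 19.2, Slc3a2 at 80.2 ± 10.3, Slc38a10 at 72.4 ± 12.5 and Slc43a2 at 53.8 ± 7.21. Slc43a3 lay above Slc38a2 in every library, while Slc38a2, Slc3a2 and Slc38a10 each overlapped the next gene in this order. Below a gap that no library bridged came Slc6a6 (29.9 ± 4.72), Slc7a5 (26.8 ± 6.38) and Slc7a7 (23.4 ± 2.51), whose ranges overlapped in turn. Slc7a7 did not overlap the next gene by mean level, Slc36a4 (14.7 ± 2.49). Below these came Slc7a8 (14.5 ± 6.68), whose highest libraries overlapped Slc7a7 and Slc7a5, and then Slc38a7 (13.6 ± 2.00), Slc1a5 (12.9 ± 3.24), Slc36a1 (10.9 ± 1.57), Slc6a8 (8.996 ± 1.90) and Slc38a6 (7.56 ± 1.43). All remaining genes averaged 4.16 RPKM (Slc7a1) or less, and no library of Slc7a1 reached the lowest of Slc38a6. The 4 most abundant genes held 58.8% to 66.1% of the summed transporter RPKM of a library, and the 10 most abundant held 85.3% to 90.1%. Summed over all 60 genes, the level was 677 ± 84.6 RPKM in the controls and 702 ± 9.78 RPKM in the knock-outs (SD, n = 3 per group), and the groups overlapped. In CPM the sums were 3152, 3380 and 3047 in the controls and 2937, 3223 and 3028 in the knock-outs, which also overlapped. RPKM is scaled to totals that include the ribosomal RNA Rn18s. Rn18s took 5.14%, 0.864% and 6.62% of the control counts and 1.33%, 3.72% and 2.04% of the knock-out counts.

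**Figure D1:**
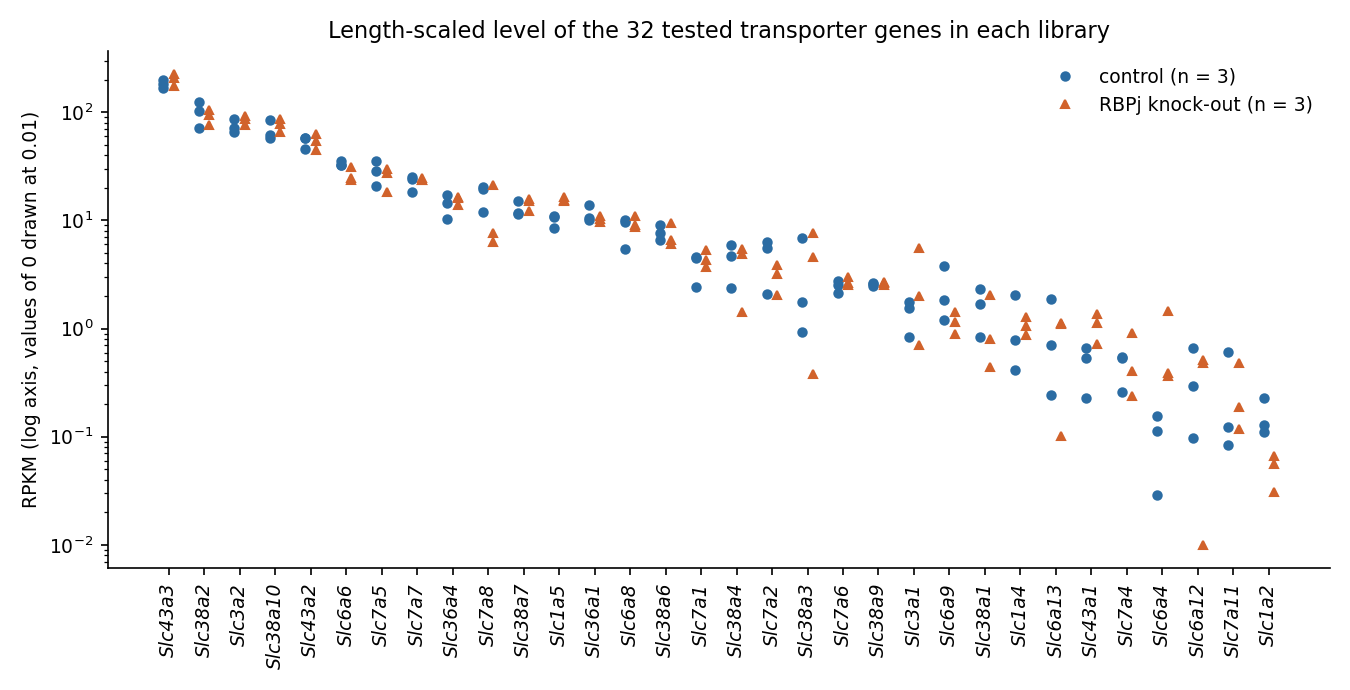
Level of the 32 tested transporter genes in each library, in RPKM on a log axis, ordered by the mean over the 6 libraries (circles, 3 control libraries; triangles, 3 RBPj knock-out libraries; a value of 0 is drawn at 0.01). Slc43a3 is highest at 169 to 225 RPKM and Slc1a2 is lowest at 0.0311 to 0.228 RPKM, and for 27 of the 32 genes the symbols of both groups overlap. Slc36a1 overlaps in RPKM but not in CPM, and Slc43a1 in CPM but not in RPKM.

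Among the 28 genes with too few reads, 10 had no read in any library. These were the glutamate carrier Slc1a1, the system N carrier Slc38a5, the light chains Slc7a12 and Slc7a13, the lysosomal Slc7a14, and the Slc6 genes Slc6a3, Slc6a5, Slc6a11, Slc6a15 and Slc6a18. The row of Slc1a1 is placed on a separate scaffold and on no chromosome, so its 0 may not measure the gene. A count of 0 allows up to 3 reads, which is 0.243 to 0.289 CPM depending on the library and covers counting error only. The other 18, among them Slc1a3, Slc1a6, Slc1a7, Slc36a2, Slc36a3, Slc38a8, Slc38a11, Slc6a14, Slc6a19, Slc7a3, Slc7a9, Slc7a10 and Slc7a15, had at most 42 reads over the 6 libraries and at most 19 in any library. The 42 reads were reached by Slc1a6 and Slc7a10. The symbols Slc6a20a and Slc6a20b, with 1 and 13 reads over the 6 libraries, fall outside the symbol rule and were not counted.

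No transporter passed the threshold in the comparison of knock-out with control SECs. In the edgeR quasi-likelihood test with Benjamini-Hochberg adjustment over all 15404 tested genes, 0 of the 32 transporters were called higher and 0 lower, where 0.104% of all tested genes were called higher and 0.0909% lower. None was called in any of the 6 fits that left out a library. At an unadjusted p under 0.05, 3 were higher (Slc1a5, Slc6a4 and Slc43a1) and 2 lower (Slc1a2 and Slc6a6), beside 9.39% higher and 8.13% lower over all genes, which are shares of about the same size. In CPM the groups did not overlap for 2 genes that were higher (Slc1a5 and Slc6a4) and 3 that were lower (Slc1a2, Slc6a6 and Slc36a1). Over all genes 13.2% did not overlap and were higher and 11.7% did not overlap and were lower. DESeq2 called 1 transporter higher and 0 lower, with 3.86% of the genes it gave an adjusted p called higher and 2.91% lower. limma-voom with sample weights called 1 higher and 0 lower, with 2.05% of all genes higher and 1.44% lower. With both of these tools the called gene was Slc1a5. DESeq2 gave no adjusted p for Slc1a2, Slc6a4 and Slc6a12. The median log2 fold change of the 32 transporters was -0.07, and that of all tested genes was -0.03. There were 14 transporters with a log2 fold change above 0 and 18 below, and 21 of the 32 lay within 0.3 of 0. For 17 transporters the 95% interval lay within a log2 fold change of -1 to 1. For the other 15 it reached past that range, so that at this depth and spread the data did not bound the difference to within 2 times.

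**Figure D2:**
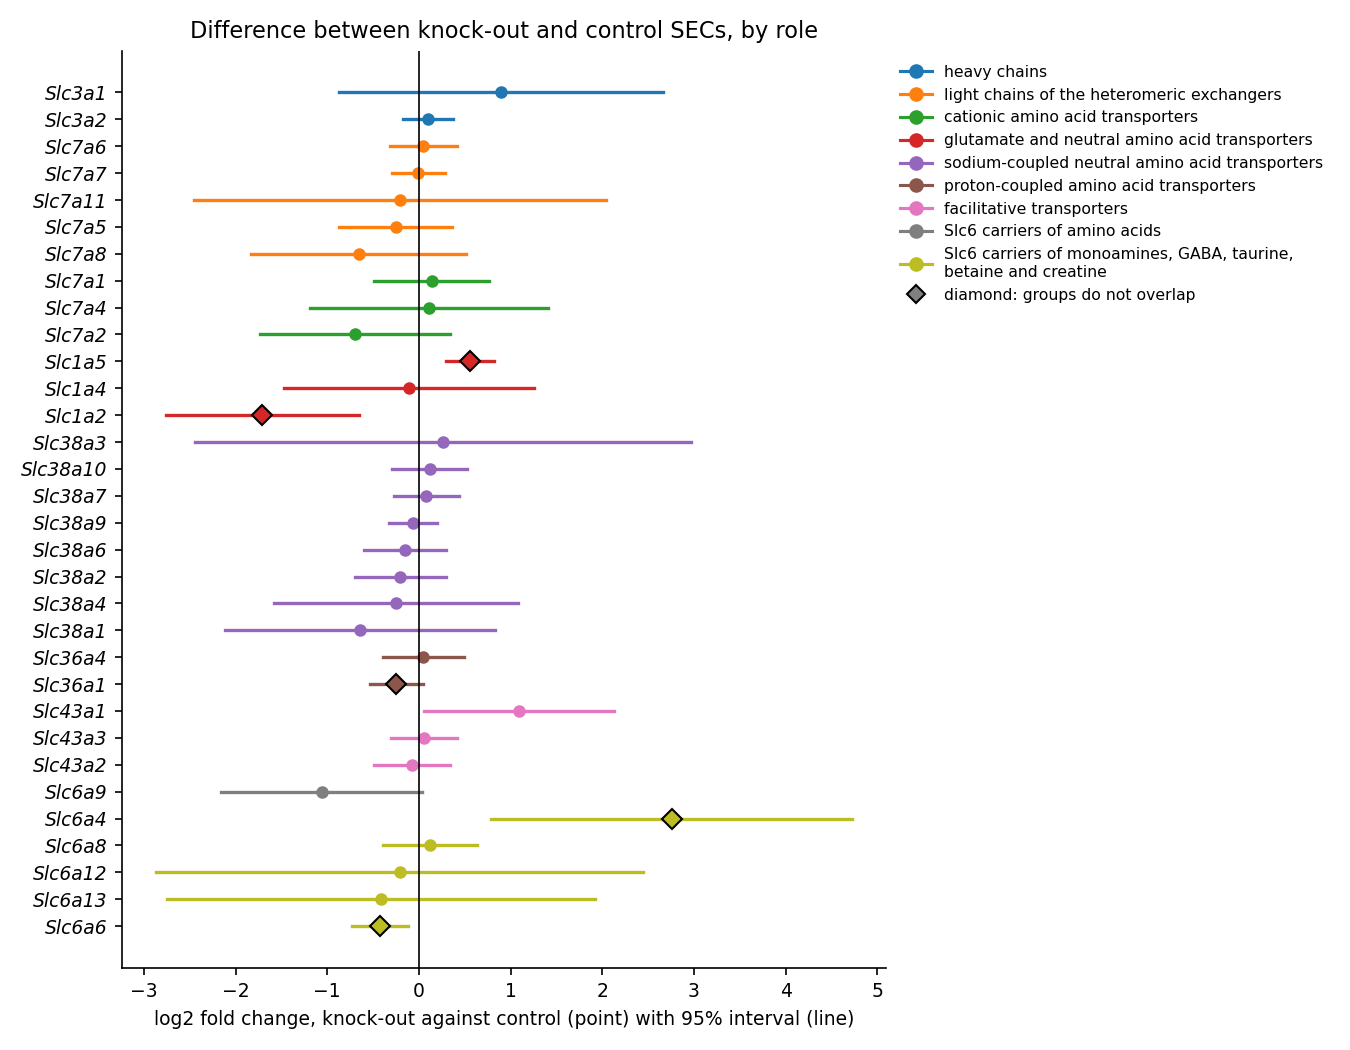
Log2 fold change of knock-out against control SECs for the 32 tested transporters (point) with its 95% interval from edgeR (line), coloured by role, with diamonds where the 3 control and 3 knock-out libraries did not overlap. Slc1a5 has a short interval above 0 (0.30 to 0.82), Slc6a6 one below 0 (-0.73 to -0.12), and the widest intervals belong to genes with few reads or large differences among replicates, such as Slc38a3, Slc6a12 and Slc7a11.

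Promoter sequences were examined for letters bound by factors of interest: the E-box CACGTG of Myc and its relatives, the RBPJ core TGGGAA, and the amino acid response element TGATGNAA through which Atf4 acts. Each was searched on both strands in windows from 250 bases before to 50 bases after the gene start (RefSeq, GRCm38.p6), and the E-box reads the same on both strands. The matches do not overlap one another in the sequences shown. Windows were at hand for 23 of the 32 tested transporters. Slc1a5, Slc6a6, Slc6a8, Slc7a2, Slc7a4, Slc7a5, Slc38a1, Slc38a3 and Slc43a3 were not searched. The E-box was found in 3 of the 23 (Slc36a1, Slc38a7 and Slc43a1) and in 7.77% of 21041 genes, counting 1 window per gene. The RBPJ core was found in 6 of the 23 (Slc1a4, Slc38a4, Slc3a2, Slc43a1, Slc6a12 and Slc7a11) and in 25% of all genes. The window of Slc3a2 starts 9472 bases from the gene start in the deposited table. The amino acid response element was found in 3 of the 23 (Slc1a4, Slc7a7 and Slc7a11) and in 3.92% of all genes. The windows of Slc1a2, Slc6a4 and Slc6a9 held none of the 3 motifs, and that of Slc1a2 starts 47844 bases from the gene start in the deposited table. Windows of 3 transporters are shown, each over 270 bases ending 20 bases after the start, as examples that hold E-boxes or response elements. They were chosen after the motifs were seen, and other windows that hold these motifs are not shown. Capitals mark the matches, and distances are counted from the window's start site to the first base of the match. Slc43a1 (chr2:84840073-84840342, plus strand) has an E-box 64 bases before the start and the RBPJ core on the other strand (TTCCCA) 130 bases before it, in a window that starts 1435 bases from the gene start in the deposited table. Slc36a1 (chr11:55204090-55204359, plus strand) has E-boxes 31 and 3 bases before the start. Slc7a11 (chr3:50443594-50443863, minus strand) has the amino acid response element 66 bases before the start, the same element on the other strand (TTGCATCA) 47 bases before it, and the RBPJ core 180 bases before it. The start of this window lies 55474 bases from the gene start in the deposited table. A match is a description of the letters and does not show binding.
Slc43a1: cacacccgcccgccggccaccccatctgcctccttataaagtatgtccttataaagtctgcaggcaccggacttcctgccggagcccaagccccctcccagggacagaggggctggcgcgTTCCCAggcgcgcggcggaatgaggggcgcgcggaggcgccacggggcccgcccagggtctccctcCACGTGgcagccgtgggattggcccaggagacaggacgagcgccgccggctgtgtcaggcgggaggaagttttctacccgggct
Slc36a1: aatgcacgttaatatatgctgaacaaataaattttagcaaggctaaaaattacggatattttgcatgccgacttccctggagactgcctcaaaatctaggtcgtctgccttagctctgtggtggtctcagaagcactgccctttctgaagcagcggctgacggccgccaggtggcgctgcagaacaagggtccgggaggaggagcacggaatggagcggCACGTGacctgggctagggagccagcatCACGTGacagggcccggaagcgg
Slc7a11: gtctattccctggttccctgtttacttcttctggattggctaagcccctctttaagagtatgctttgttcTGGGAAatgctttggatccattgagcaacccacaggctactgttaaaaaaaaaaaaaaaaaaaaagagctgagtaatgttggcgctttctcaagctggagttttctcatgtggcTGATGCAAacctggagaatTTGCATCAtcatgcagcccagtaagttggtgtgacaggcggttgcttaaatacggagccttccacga

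Of the heavy chains, Slc3a2 (chr19:8706882-8723369, minus strand, mm10) was abundant and nearly level across libraries, while Slc3a1 was low and uneven. Slc3a2 was at 236, 249.6 and 208 CPM in the control libraries and 263, 233 and 248 CPM in the knock-out libraries (replicates 1, 2 and 3 in order, as below). The highest library was knock-out replicate 1 and the lowest control replicate 3, and the groups overlapped. For Slc3a2 the log2 fold change was 0.10 ± 0.11 (SE), with a 95% interval of -0.18 to 0.38 (adjusted p = 0.678, edgeR). Slc3a1 was at 2.13, 3.88 and 3.79 CPM in the control libraries and 12.4, 1.64 and 4.42 CPM in the knock-out libraries. Knock-out replicate 1 held 136 of its 319 reads, and the log2 fold change of 0.90 ± 0.72 (SE) became -0.10 without that library. Slc3a1 is known from kidney and intestine, where its product pairs with that of Slc7a9. Slc3a1 shares 1933 bases on the opposite strand with Prepl (1348 reads), and because it is not known whether counting used strand, reads of the pair may not have been told apart. Knock-out replicate 1 was also the library with the most hepatocyte marker RNA by sum (3879 CPM). Alb, Apoa1, Fga, Fgb, Fgg, Ahsg and Tat were highest there, while Apoa2, Ttr, Serpina1a and Cps1 were not. Cyp2e1 was lowest there, at 4.82 CPM against 4.99 to 84.3 CPM in the other libraries. The part of hepatocyte RNA in the result was not tested.

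The light chains that pair with Slc3a2 gave no called difference, and 5 of the 10 light chain genes were tested. Slc7a5 was at 112, 119 and 76.8 CPM in the control libraries and 61.2, 106 and 91.0 CPM in the knock-out libraries. Slc7a5 (LAT1, chr8:121881146-121907686, minus strand) exchanges glutamine for leucine and other large neutral amino acids. Its lowest value was in knock-out replicate 1 and its next lowest in control replicate 3, with the groups overlapping. For Slc7a5 the log2 fold change was -0.25 ± 0.26 (SE) with a 95% interval of -0.87 to 0.36 (adjusted p = 0.633, edgeR). Slc7a5 shares 1155 bases on the same strand with the protein-coding LOC105246825 (1778 reads, against 6424 for Slc7a5), so its count may hold reads of that gene.

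Slc7a8 (LAT2, also an exchanger of neutral amino acids) split the knock-out libraries. Slc7a8 was at 53.6, 79.0 and 82.8 CPM in the control libraries and 81.4, 25.9 and 29.4 CPM in the knock-out libraries. Knock-out replicates 2 and 3 were below all controls and knock-out replicate 1 was among the highest. For Slc7a8 the log2 fold change was -0.66 ± 0.48 (SE) (adjusted p = 0.517, edgeR), and it was -1.37 without knock-out replicate 1 (adjusted p = 0.0833). The Kupffer cell and macrophage markers were 2576, 3412 and 4924 CPM in the controls and 3111, 789 and 1267 CPM in the knock-outs, low in the same 2 libraries, and their part in the result was not tested. Slc38a1, a sodium-coupled glutamine carrier, showed the same split at 7.78, 18.6 and 15.0 CPM against 16.4, 3.77 and 6.43 CPM, with a log2 fold change of -0.64 ± 0.60 (SE) (adjusted p = 0.611, edgeR).

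Slc7a7 (y+LAT1) and Slc7a6 (y+LAT2) export cationic amino acids such as arginine in exchange for neutral ones. Slc7a7 was at 60.6, 68.5 and 79.3 CPM in the control libraries and 66.5, 70.4 and 70.0 CPM in the knock-out libraries. The knock-out values lay inside the control range, the log2 fold change being -0.01 ± 0.12 (SE) with a 95% interval of -0.30 to 0.28 (adjusted p = 0.974, edgeR). Across the controls Slc7a7 was ordered as the macrophage markers were, and across the knock-outs it was nearly level while the markers differed. It shares 228 bases on the opposite strand with Oxa1l (3739 reads). Slc7a6 was lower, at 9.70, 10.8 and 11.1 CPM against 10.4, 12.4 and 9.92 CPM. Slc7a11 (xCT) imports cystine in exchange for glutamate and is a known target of Atf4. It had 60, 9 and 13 reads in the control libraries and 48, 14 and 22 reads in the knock-out libraries. Control replicate 1 and knock-out replicate 1, the libraries with 22470 and 4537 CPM of neutrophil markers, held 60 and 48 of its 166 reads. For Slc7a11 the log2 fold change was -0.20 ± 0.92 (SE) (adjusted p = 0.929, edgeR) and 1.26 without control replicate 1, so no direction could be given. The part of neutrophil RNA in this pattern was not tested.

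Set beside each other per length, Slc3a2 and its light chains were of similar total level. The ratio of Slc3a2 RPKM to the summed RPKM of Slc7a5, Slc7a6, Slc7a7, Slc7a8, Slc7a10 and Slc7a11 was 1.14, 1.05 and 0.956 in the controls and 1.39, 1.21 and 1.39 in the knock-outs. The means were 1.05 ± 0.0920 and 1.33 ± 0.103 (SD, n = 3 per group), with no overlap, and the ratio was formed after the values were known and was not tested. Slc7a5 made up 27.6% to 47.4% of the summed light chain RPKM, Slc7a7 29.2% to 39.7% and Slc7a8 10% to 31.9%. Slc7a11 was under 1% in every library. The share of Slc7a8 varied most among the knock-outs, at 31.9%, 10% and 12.2%.

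**Figure D3:**
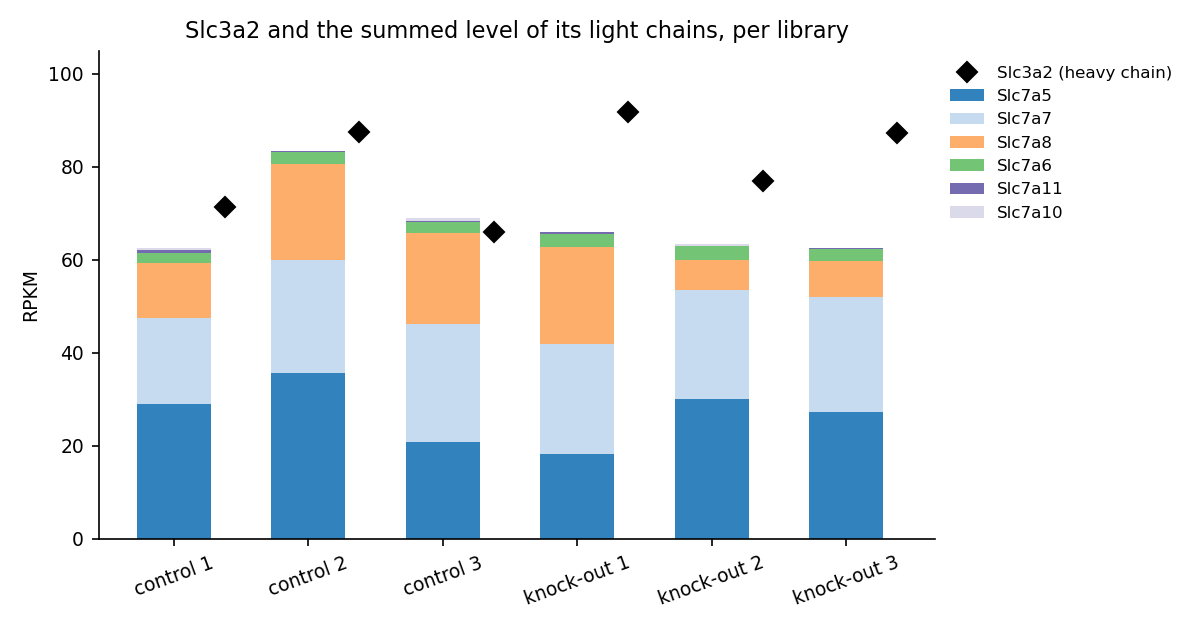
RPKM of the light chains that pair with Slc3a2, stacked per library (bars), and RPKM of Slc3a2 itself (diamonds). The diamond lies close to the top of the bar in the 3 control libraries (ratios 0.956 to 1.14) and above it in the 3 knock-out libraries (1.21 to 1.39), and the Slc7a8 segment runs from 6.35 to 21.1 RPKM.

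The cationic amino acid carriers bring arginine and lysine into the cell. Slc7a1 was at 19.9, 31.6 and 35.95 CPM in the control libraries and 30.6, 39.7 and 25.9 CPM in the knock-out libraries. Slc7a1 (CAT1), the widely expressed arginine carrier of endothelium, was lowest in control replicate 1 and highest in knock-out replicate 2, with a log2 fold change of 0.14 ± 0.26 (SE) (adjusted p = 0.817, edgeR). Slc7a2 was at 20.7, 47.9 and 59.7 CPM in the control libraries and 33.4, 18.5 and 27.4 CPM in the knock-out libraries. Slc7a2 (CAT2), known from hepatocytes and activated macrophages, was highest in control replicates 2 and 3 and its groups overlapped, with a log2 fold change of -0.70 ± 0.42 (SE) (adjusted p = 0.438, edgeR). Slc7a4, whose transport function is less known, was at 1.17, 2.11 and 2.28 CPM against 3.54, 0.982 and 1.55 CPM.

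Slc1a5 (chr7:16781345-16798274, plus strand) was the transporter with the smallest p. Slc1a5 was at 26.4, 29.5 and 31.9 CPM in the control libraries and 44.7, 43.3 and 41.2 CPM in the knock-out libraries. All 3 knock-out libraries lay above all 3 controls, and neither group spread widely. Slc1a5 (ASCT2) takes up glutamine in exchange for other neutral amino acids. The means were 29.3 ± 2.72 against 43.1 ± 1.76 CPM (SD, n = 3 per group), a ratio of 1.47. For Slc1a5 the log2 fold change was 0.56 ± 0.11 (SE) with a 95% interval of 0.30 to 0.82. The adjusted p was 0.101 with edgeR, 0.00693 with DESeq2 and 0.0410 with limma-voom, so the call depended on the tool. Leaving out each library in turn gave log2 fold changes of 0.49 to 0.62 and adjusted p-values of 0.127 to 0.324. The summed SEC markers were likewise higher in every knock-out library (21930, 26940 and 22720 CPM) than in the controls (20500, 20840 and 14340 CPM). Of the 12 markers, 5 were higher and 1 lower without overlap (13.2% and 11.7% of all genes). Their log2 fold changes ran from -1.03 to 0.86, so the single markers did not all follow the sum. The part of SEC marker RNA in the result was not tested.

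Slc1a2 (chr2:102658594-102790784, plus strand) encodes the glutamate carrier GLT-1 (EAAT2) and was scarce. It had 15, 19 and 33 reads in the control libraries and 9, 5 and 9 reads in the knock-out libraries. In CPM the values were 1.6, 1.604 and 3.13 CPM against 0.818, 0.409 and 0.697 CPM, and the highest knock-out library was below the lowest control. For Slc1a2 the log2 fold change was -1.71 ± 0.44 (SE) (adjusted p = 0.151, edgeR), and the pooled reads gave a ratio of 0.302 with an exact binomial 95% interval of 0.179 to 0.491 that covers counting error only. Slc1a4 was at 1.81, 2.95 and 8.44 CPM in the control libraries and 3.999, 3.44 and 4.80 CPM in the knock-out libraries. Slc1a4 (ASCT1), a carrier of alanine, serine and cysteine, was highest in control replicate 3, with a log2 fold change of -0.11 ± 0.56 (SE) (adjusted p = 0.936, edgeR).

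Of the sodium-coupled neutral amino acid carriers of the Slc38 family, 8 of 11 were tested and none was called. Slc38a2 was at 535, 548 and 353 CPM in the control libraries and 467, 362 and 419 CPM in the knock-out libraries. Slc38a2 (SNAT2, chr15:96687386-96699724, minus strand) concentrates glutamine and alanine in the cell and is known to be induced when amino acids are scarce. Control replicates 1 and 2 were highest and control replicate 3 lowest, the log2 fold change being -0.20 ± 0.20 (SE) with a 95% interval of -0.70 to 0.29 (adjusted p = 0.635, edgeR). Slc38a10 was at 349, 438 and 352 CPM in the control libraries and 346, 483 and 406 CPM in the knock-out libraries. Slc38a10 was highest in knock-out replicate 2, with a log2 fold change of 0.12 ± 0.17 (SE) (adjusted p = 0.755, edgeR), and it shares 1001 bases on the opposite strand with Gm11769 (1721 reads). Slc38a6 was at 68.0, 69.5 and 55.5 CPM in the control libraries and 50.8, 49.5 and 73.1 CPM in the knock-out libraries. Knock-out replicate 3 was the highest and knock-out replicate 2 the lowest library of Slc38a6, whose log2 fold change was -0.15 ± 0.18 (SE) (adjusted p = 0.690, edgeR). Slc38a7, known from the lysosomal membrane, was at 45.4, 51.6 and 43.9 CPM against 41.3, 57.2 and 50.8 CPM, with a log2 fold change of 0.08 ± 0.15 (SE).

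Slc38a9, the lysosomal arginine sensor that acts on mTORC1 through the Rag GTPases, varied little between libraries. Slc38a9 was at 32.4, 27.0 and 29.1 CPM in the control libraries and 27.9, 28.3 and 28.3 CPM in the knock-out libraries. The knock-out values lay inside the control range and had an SD of 0.231 CPM. For Slc38a9 the log2 fold change was -0.07 ± 0.11 (SE) with a 95% interval of -0.33 to 0.19 (adjusted p = 0.776, edgeR).

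Some transporters known from hepatocytes were lowest in the libraries with the least hepatocyte marker RNA, and the 3 given here were named after their values were seen. Slc38a3 was at 2.88, 4.73 and 20.2 CPM in the control libraries and 20.3, 1.06 and 12.2 CPM in the knock-out libraries. Slc38a3 (SNAT3) is the system N glutamine carrier of hepatocytes. Slc38a4 (SNAT4) was at 11.4, 19.7 and 27.4 CPM against 22.8, 6.22 and 20.3 CPM, and Slc6a13 (GAT2, a carrier of GABA and taurine) at 0.640, 1.604 and 4.74 CPM against 2.54, 0.245 and 2.48 CPM. All 3 were lowest in knock-out replicate 2, where the hepatocyte markers were also lowest (218 CPM), next lowest in control replicate 1 (511 CPM), and then in control replicate 2 (1551 CPM). Their log2 fold changes were 0.26 ± 1.10 (SE) for Slc38a3, -0.25 ± 0.54 (SE) for Slc38a4 and -0.41 ± 0.95 (SE) for Slc6a13, with adjusted p-values of 0.925, 0.845 and 0.853 (edgeR). The part of hepatocyte RNA in these values was not tested.

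**Figure D4:**
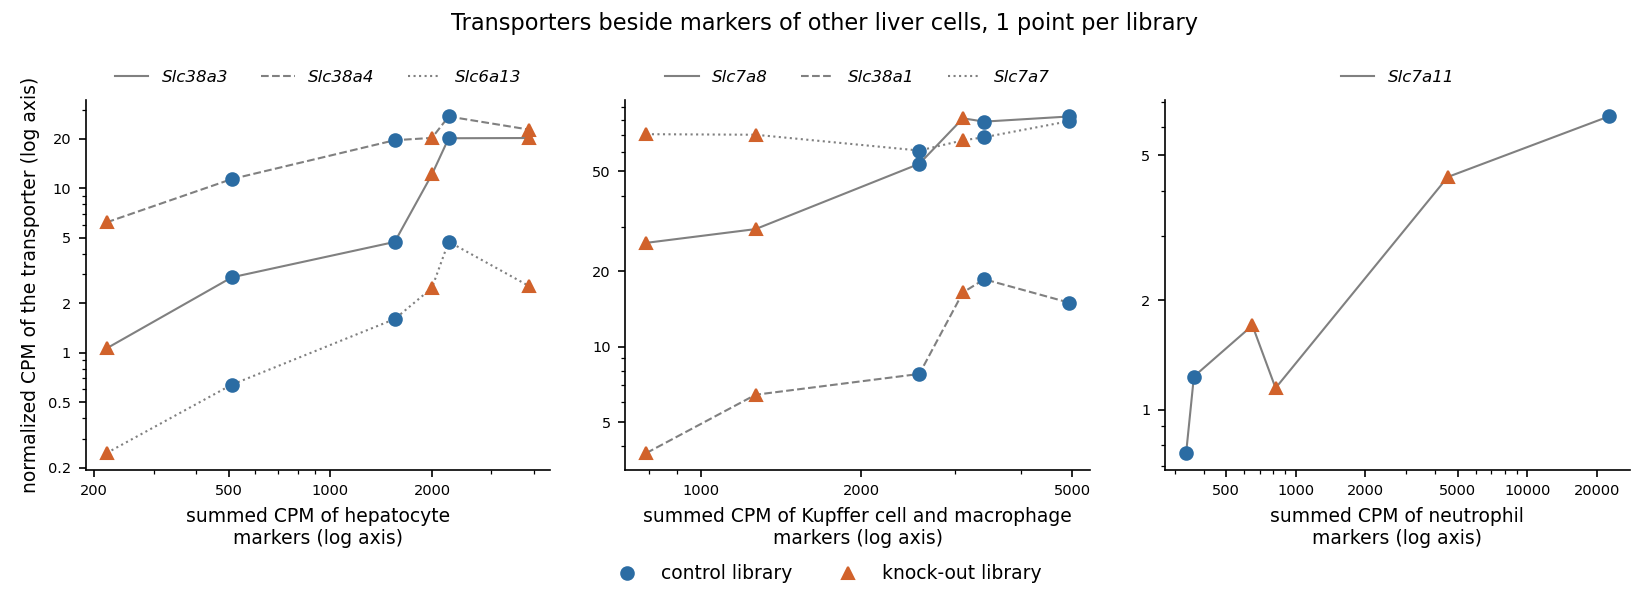
Normalized CPM of 7 transporters against the summed CPM of markers of hepatocytes (left), Kupffer cells and macrophages (middle) and neutrophils (right), both axes logarithmic, 1 point per library, with grey lines joining the points of a gene. Slc38a3, Slc38a4 and Slc6a13 are lowest where hepatocyte markers are lowest, Slc7a8 and Slc38a1 are lowest in the 2 knock-out libraries with the least macrophage marker RNA while Slc7a7 stays between 60.6 and 79.3 CPM, and Slc7a11 is highest in the 2 libraries with the most neutrophil marker RNA.

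The proton-coupled carriers Slc36a1 (PAT1) and Slc36a4 (PAT4) move neutral amino acids, the former out of lysosomes. Slc36a1 was at 61.6, 70.6 and 56.2 CPM in the control libraries and 55.2, 55 and 48.6 CPM in the knock-out libraries. Every knock-out library was below every control, though control replicate 3 lay close to the nearest knock-out libraries. In RPKM, which is scaled without TMM, the groups overlapped. For Slc36a1 the log2 fold change was -0.25 ± 0.12 (SE) with a 95% interval of -0.53 to 0.04 (adjusted p = 0.339, edgeR). Slc36a4 was at 93.8, 95.7 and 63.4 CPM in the control libraries and 76.7, 94.5 and 90.6 CPM in the knock-out libraries. Its lowest library was control replicate 3, and the log2 fold change of Slc36a4 was 0.05 ± 0.18 (SE) (adjusted p = 0.912, edgeR).

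The Slc43 family held the most abundant gene of the set, and all 3 of its genes were tested. Slc43a3 was at 681, 628 and 595 CPM in the control libraries and 563, 759 and 655 CPM in the knock-out libraries. Slc43a3 (chr2:84936545-84958509, plus strand) carries the purine nucleobases adenine, guanine and hypoxanthine rather than amino acids. The knock-out libraries spanned more than the controls, the log2 fold change being 0.05 ± 0.15 (SE) with a 95% interval of -0.31 to 0.41 (adjusted p = 0.877, edgeR). Slc43a2 was at 451, 498 and 545 CPM in the control libraries and 386, 568 and 464 CPM in the knock-out libraries. Slc43a2 (LAT4), a facilitative carrier of branched-chain amino acids, phenylalanine and methionine, was both highest and lowest in knock-out libraries, with a log2 fold change of -0.08 ± 0.17 (SE) (adjusted p = 0.850, edgeR).

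Slc43a1 (LAT3, chr2:84838888-84863586, plus strand) carries the same kinds of amino acids as Slc43a2 and had 206 reads in all. It had 9, 23 and 28 reads in the control libraries and 29, 53 and 64 reads in the knock-out libraries. In CPM the values were 0.960, 1.94 and 2.66 CPM against 2.64, 4.34 and 4.96 CPM, so that the lowest knock-out library lay just under the highest control. For Slc43a1 the log2 fold change was 1.09 ± 0.43 (SE) with a 95% interval of 0.06 to 2.13 (adjusted p = 0.265, edgeR). Its promoter window was 1 of the 3 that held an E-box, and LOC105244220 overlaps it on the opposite strand by 1214 bases with 41 reads.

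Among the sodium- and chloride-coupled Slc6 carriers, Slc6a6 was the one of high level. Slc6a6 was at 225, 212 and 217 CPM in the control libraries and 189, 150.4 and 148 CPM in the knock-out libraries. All knock-out values were below all control values, and knock-out replicates 2 and 3 were lowest. Slc6a6 (chr6:91684044-91759063, plus strand) is TauT, the carrier of taurine and beta-alanine. For Slc6a6 the log2 fold change was -0.42 ± 0.13 (SE) with a 95% interval of -0.73 to -0.12, and the adjusted p was 0.186 with edgeR, 0.0706 with DESeq2 and 0.0579 with limma-voom. Leaving out each library in turn gave -0.54 to -0.34. Macrophage markers were also lowest in knock-out replicates 2 and 3, and their part in the result was not tested.

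Slc6a4, the serotonin carrier, had the largest fitted log2 fold change of the tested transporters and rested on few reads. It had 5, 4 and 1 reads in the control libraries and 48, 15 and 14 reads in the knock-out libraries. In CPM the values were 0.533, 0.338 and 0.0949 CPM against 4.36, 1.23 and 1.08 CPM, with every knock-out library above every control and knock-out replicate 1 far above the other two. The pooled reads, 10 in the controls and 77 in the knock-outs, gave a ratio of 6.77 with an exact binomial 95% interval of 3.49 to 14.7 that covers counting error only. For Slc6a4 (chr11:76998466-77032345, plus strand) the log2 fold change was 2.76 ± 0.81 (SE) (adjusted p = 0.181, edgeR) and 1.84 without knock-out replicate 1. Platelets are known to carry this protein. The 9 erythroid and platelet markers summed to 19.8, 15.1 and 24.5 CPM in the controls and 162.5, 53.6 and 33.0 CPM in the knock-outs, in the same order of knock-out libraries as Slc6a4, while the defining platelet markers Pf4 and Ppbp were at 0 in all libraries.

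Slc6a9 (GLYT1, the glycine carrier) was the one tested member of the Slc6 amino acid carriers. Slc6a9 was at 4.80, 6.33 and 14.4 CPM in the control libraries and 3.09, 4.17 and 4.96 CPM in the knock-out libraries. Control replicate 3 was high, and the groups overlapped because knock-out replicate 3 lay just above control replicate 1. For Slc6a9 the log2 fold change was -1.06 ± 0.45 (SE) (adjusted p = 0.297, edgeR), and it was -0.45 without control replicate 3. Control replicate 3 was also the library with the most stellate cell marker RNA (13050 CPM, against 1511 to 7549 CPM in the other libraries), and the part of that RNA in the result was not tested. Slc6a8, the creatine carrier, was at 24.2, 37.8 and 40.4 CPM against 42.2, 36.1 and 33.2 CPM with a log2 fold change of 0.12 ± 0.21 (SE). Slc6a12 (BGT1, a carrier of betaine and GABA) had 69 reads in all and 0 in knock-out replicate 2, and its 95% interval of -2.86 to 2.45 gave no direction.

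Genes around the transporters gave no difference called by edgeR either. Of the list genes named below, those that DESeq2 or limma-voom called are marked as such. Calls by these tools among the other list genes were not counted. Of 29 genes of the amino acid stress response (Atf4 and genes it is known to induce), 27 were tested and 0 were called with edgeR, 4 being higher and 0 lower at an unadjusted p under 0.05 (9.39% and 8.13% of all genes) and likewise 4 and 0 without overlap (13.2% and 11.7%), with a median log2 fold change of 0.06. Atf4 itself was at 219, 172 and 181 CPM against 249, 244 and 228 CPM, every knock-out library above every control, with a log2 fold change of 0.34 ± 0.12 (SE) (adjusted p = 0.247, edgeR). Ppp1r15a, the stress-induced regulator of eIF2alpha phosphatase, was at 477, 514 and 420 CPM against 639.8, 707 and 775 CPM, again without overlap, with a log2 fold change of 0.59 ± 0.14 (SE) (adjusted p = 0.133 with edgeR, 0.00329 with DESeq2). Shmt2, the mitochondrial serine hydroxymethyltransferase, had a log2 fold change of 0.47 ± 0.16 (SE) (adjusted p = 0.226, edgeR).

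Of 20 cytosolic aminoacyl-tRNA synthetases, which load amino acids onto tRNAs, 17 were tested and 0 were called with edgeR, with 3 higher and 1 lower at an unadjusted p under 0.05 (9.39% and 8.13% of all genes) and 7 higher and 1 lower without overlap, against 13.2% and 11.7% of all genes. Their median log2 fold change was 0.15. Wars, the tryptophan enzyme, was at 209, 157 and 153 CPM against 111, 134 and 124 CPM (log2 fold change -0.49 ± 0.16 (SE), adjusted p = 0.207, edgeR). Kars and Iars, the lysine and isoleucine enzymes, had log2 fold changes of 0.27 ± 0.10 (SE) and 0.33 ± 0.13 (SE) (adjusted p = 0.261 and 0.267, edgeR).

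Of 35 genes of lysosomal amino acid sensing and mTORC1, 33 were tested and 0 called with edgeR. At an unadjusted p under 0.05, 0 were higher and 3 lower (9.39% and 8.13% of all genes), and 1 was higher and 5 lower without overlap (13.2% and 11.7%), with a median log2 fold change of -0.09. The 3 were Gatsl3 (Castor1, the cytosolic arginine sensor) at -0.47 ± 0.17 (SE), Tfeb (a transcription factor of lysosomal genes) at -0.33 ± 0.12 (SE) and Rragd (a Rag GTPase) at -0.95 ± 0.36 (SE) on the log2 scale, with adjusted p-values of 0.237, 0.246 and 0.257 (edgeR). Rragd was high in control replicate 3, at 15.7, 17.4 and 37.9 CPM against 12.5, 13.3 and 11 CPM, and its log2 fold change was -0.43 without that library.

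Of 26 genes of glutamine, glutamate and aspartate metabolism, 25 were tested and 0 called with edgeR, with 2 higher and 2 lower at an unadjusted p under 0.05 (9.39% and 8.13% of all genes), 3 higher and 2 lower without overlap (13.2% and 11.7%), and a median log2 fold change of -0.02. Cad, which starts pyrimidine synthesis from glutamine, was at 27.4, 37.0 and 35.3 CPM against 40.2, 56.5 and 45.1 CPM with a log2 fold change of 0.51 ± 0.18 (SE) (adjusted p = 0.228, edgeR). Bcat2, a branched-chain aminotransferase, had 0.30 ± 0.10 (SE) (adjusted p = 0.228, edgeR). Ggt5, a gamma-glutamyl transferase, was at 51.7, 14.9 and 52.2 CPM against 14.1, 12.0 and 10.5 CPM, high in control replicates 1 and 3, with a log2 fold change of -1.70 ± 0.48 (SE) (adjusted p = 0.180 with edgeR, 0.0102 with DESeq2).

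Of 22 other carriers of amino acids or of small peptides outside the 7 families, 16 were tested and 0 called with edgeR. At an unadjusted p under 0.05, 0 were higher and 3 lower (9.39% and 8.13% of all genes), and 0 were higher and 6 lower without overlap (13.2% and 11.7%), with a median log2 fold change of -0.23. Slc15a3, a lysosomal carrier of histidine and small peptides known from macrophages, was at 108, 99.8 and 132 CPM against 86.8, 53.5 and 58.6 CPM, with no overlap and a log2 fold change of -0.77 ± 0.21 (SE) (adjusted p = 0.167 with edgeR, 0.0348 with DESeq2 and 0.0495 with limma-voom). Its relative Slc15a4 had -0.40 ± 0.15 (SE) and Slc25a12, the mitochondrial aspartate-glutamate carrier, -0.23 ± 0.08 (SE) (adjusted p = 0.252 and 0.239, edgeR). Macrophage markers were lowest in knock-out replicates 2 and 3, the lowest libraries of Slc15a3, and their part in the result was not tested.

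**Figure D5:**
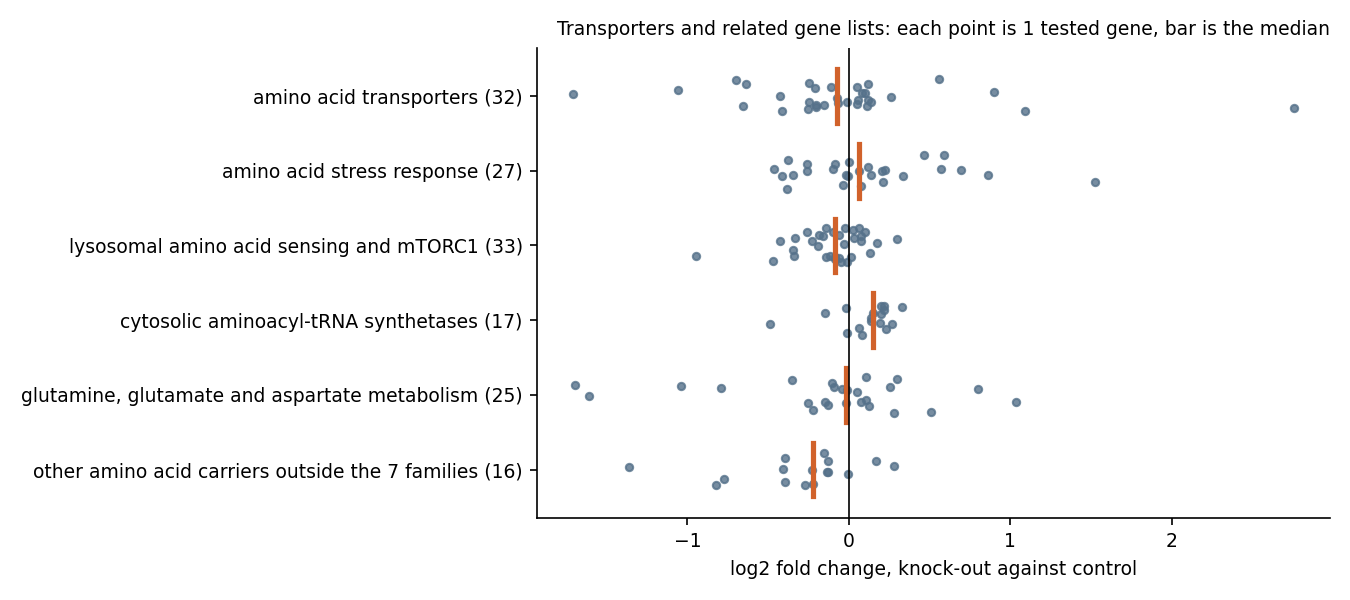
Log2 fold change of knock-out against control SECs for each tested gene (points) of the transporters and of 5 related lists, with the median of each list (bar) and the number of tested genes in parentheses. The medians lie between -0.23 (other amino acid carriers) and 0.15 (aminoacyl-tRNA synthetases), and the widest spread among the transporters runs from -1.71 (Slc1a2) to 2.76 (Slc6a4).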

How the data were processed

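RNA of sinusoidal endothelial cells was sequenced in 3 control and 3 RBPj knock-out libraries on an Illumina instrument. The submitters' processing notes name bcl2fastq, TopHat2 2.0.13 and the mouse build mm10. Which program counted the reads, with what annotation and whether by strand, is not stated in the sources read here. Raw counts for each gene, as whole numbers, were deposited in 1 table together with RPKM values that the authors computed beside them. In 100.0% of values the deposited RPKM equalled the count over gene length and library total within 0.1%. RPKM was used to compare levels between genes and counts for every test.

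The test was glmQLFTest in edgeR 4.0.16 under R 4.3.3, the quasi-likelihood test (TMM, filterByExpr, robust glmQLFit, group as the one term, two-sided), which left 15404 genes, with Benjamini-Hochberg adjustment over all of them and a threshold of 0.05. CPM are TMM-normalized. Alternatives were RLE size factors, DESeq2 1.42.0, a stricter filter on low counts and none, the replicate number as a block, limma 3.58.1 voom with sample quality weights, and leaving out each library. Total counts of 10372195 to 12326770 put a limit of 3 counts at 0.243 to 0.289 CPM. Since PCR copies of a molecule could not be told apart, intervals on reads cover counting error only. No pair of libraries agreed within sampling noise.

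The transporters and the 5 gene lists were chosen with earlier results of these data known. Of 221 list and marker entries, 215 matched by symbol and 4 by a RefSeq synonym, 1 (Samtor) had no match and 1 repeated a gene. Named transporters were those past the threshold, the 16 with the smallest p, the 10 with the highest mean RPKM and 8 fixed by role. From each list the 3 genes with the smallest p were named, and Rbpj and Myc always. Genes outside this rule were named after their values were seen. Some genes of the families and marker lists are not reported here by name. Promoter windows are those of RefSeq on GRCm38.p6. Motif shares count 1 window of 300 bases per gene.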

Additional observations from a re-analysis of the deposited data

How the results depend on the processing

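The count of transporters called by edgeR stayed at 0 in each direction with RLE size factors, both other filters, the block and each library left out, and rose to 1 higher with DESeq2 and 1 higher with limma-voom (Slc1a5). Over all genes, 16 were called higher and 14 lower. The higher count was 35 with RLE size factors, 544 with DESeq2, 114 with no filter, 47 with the stricter filter, 316 with limma-voom and 0 to 23 with a library left out (23 without knock-out replicate 1 and 0 without any other). The lower count was 411 with DESeq2, 62 with no filter, 26 with the stricter filter, 222 with limma-voom and 0 to 18 with a library left out (18 without knock-out replicate 1 and 0 without any other). With the replicate number as a block, 1 gene was called higher and 2 lower. Same-numbered libraries correlated in their deviations at 0.194, 0.031 and 0.419, and not every library correlated best with its own number. With 3 libraries per group this cannot tell whether the numbers pair the samples. The median log2 fold change of the transporters was -0.12 to 0.03 with a library left out. Of 476 values of 40 named genes, 446 kept direction and side of the threshold, 18 changed direction, 6 gained a call and 6 lost one (Myc). Without 1 library, direction changed within these ranges of log2 fold change: Slc36a4 -0.12 to 0.17, Slc38a10 -0.016 to 0.25, Slc38a9 -0.11 to 0.004, Slc3a1 -0.10 to 1.35, Slc43a2 -0.23 to 0.061, Slc43a3 -0.06 to 0.17, Slc7a1 -0.074 to 0.31, Slc7a11 -0.93 to 1.26 and Slc7a7 -0.10 to 0.094. It also changed for Slc7a1 with limma-voom (-0.001), for Slc7a11 with the block (0.083) and limma-voom (0.50), and for Slc7a7 with the stricter filter (0.002). None of these genes passed a threshold, and the causes were not tested. Where a transporter had under about 100 reads, as Slc1a2 and Slc6a4 did, depth limited what could be seen.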
